A study of Mus musculus with 4 samples.

Results

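The cytosolic ribosomal protein genes encode the proteins of the large (60S) and small (40S) subunits of the ribosome that translates nuclear mRNAs. They were taken as every gene symbol on the array that begins with Rpl or Rps followed by a number, with an optional letter a, x, y or l and further digits, together with Rplp0, Rplp1, Rplp2 and Rpsa. This gave 80 of the 20735 named genes, 50 of the large and 30 of the small subunit. They lie on 173 rows of the array, where a row is 1 transcript-level value, and 54 of the 80 genes have several rows, up to 6. For each gene the brightest row, by its mean log2 intensity over all 4 arrays, was used; the mean of linear intensities would take another row for 3 genes, among them Rps20 and Rps24. Of the 80, 74 are canonical ribosomal proteins (46 large, 28 small) and 6 carry the symbol of a variant or -like copy (Rpl3l, Rpl7l1, Rpl22l1, Rpl26l1, Rps27l, Rps4y2).

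The data are 4 one-colour NimbleGen arrays of Cy3-labelled RNA, with 1 array for each of 4 groups, all on the FVB/N background. The labels give the source as mouse CD4+ T cells. The groups were naive CD4+CD62Lhi splenic T cells of wild type (WT) mice, the same cells of mice with miR-7 deficiency, and cells of each genotype labelled as activated in vitro for 48 hours with antibodies to CD3 and CD28 plus IL-2. The naive cells were isolated with immune-magnetic beads. The labels call each array representative of 3 biological replicates, but only 1 array per group was analysed here. How the miR-7 deficiency was made, the age of the mice and whether RNA was pooled are not given in the sources used here. With 1 array per group the differences have no replicate check, no p-value is given, and a difference between arrays cannot be told apart from a difference between conditions.

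Each mature ribosome holds nearly all of these proteins in single copies, and the genes are transcribed in step in most cells. Many of their mRNAs start with a run of pyrimidines, the 5′ terminal oligopyrimidine (TOP) motif, through which the growth kinase mTOR and the protein Larp1 set their translation. Resting T cells are known for low protein synthesis, and stimulation through the T cell receptor and CD28 is known to raise ribosome production.

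The labelled cell type was first set against its markers, because the arrays labelled activated differed in kind from the naive ones. An array's floor was the 95th percentile of 664 rows for odorant, vomeronasal, trace-amine and taste receptors (616 genes), and stood at 986, 991, 723 and 610 intensity units in WT naive, miR-7 deficient naive, WT labelled activated and miR-7 deficient labelled activated. Of 10 CD4 T cell markers, 8 and 10 were above the floor in the naive arrays and 3 and 2 in the arrays labelled activated, and their summed intensity was 23783 and 28702 against 5369 and 7116. Of 7 neuron markers, 0 and 0 were above the floor in the naive arrays and 7 and 7 in the arrays labelled activated, with summed intensities of 1028 and 1131 against 33356 and 58927. All 5 oligodendrocyte markers and all 5 astrocyte markers were above the floor in both arrays labelled activated, against 1 and 1 of 5 in each list in both naive arrays. Of 7 B cell markers, 4 and 5 were above the floor in the naive arrays and 2 and 1 in those labelled activated. They summed to 19806 and 35724 in the naive arrays and to 4367 and 2627 in those labelled activated. The naive arrays therefore held transcripts of B cell markers beside those of T cell markers. The arrays labelled activated therefore held brain transcripts and few T cell transcripts, and activation cannot be told apart from this change of transcripts in any comparison across that label. In bulk RNA, fewer cells of a type and less RNA per cell cannot be told apart either.

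The stretch around the transcription start is shown first, since a pyrimidine run at the start of the mRNA is the sequence feature for which this gene family is known. RefSeq promoter windows (GRCm38.p6, 250 bases before to 50 after each annotated start) were available for 57 of the 80 genes, with 69 starts. A run of 8 or more C or T within 20 bases of the start was present at 28 of the 69 starts (40.6%), against 5272 of all 32851 starts in the table (16.05%). The longest run among the members, at Rpl7a, was 21 bases. A run counted in this way can lie before or after the annotated start, so it is not by itself a TOP motif. Those of Rps25 and Rps15a begin at -20 and -15 from the start and end before it. The windows below read 5′ to 3′ on the gene's strand, with the longest C/T run within 20 bases of the start in capitals. Rpl7a is shown for its longest run, Rplp2 as a stalk gene, Rpl22 with its copy Rpl22l1, and the others because they are among the highest or lowest members in a comparison below.
Rps15a, chr7:118116143-118116172, minus strand, run of 10: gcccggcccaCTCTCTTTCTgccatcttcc
Rps27, chr3:90213632-90213661, minus strand, run of 9: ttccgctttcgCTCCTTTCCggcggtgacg
Rplp2, chr7:141447636-141447665, plus strand, run of 10: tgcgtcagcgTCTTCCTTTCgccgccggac
Rps25, chr9:44407685-44407714, plus strand, run of 12: caccgggctTCCTTTTTTTCCgacatctta
Rpl38, chr11:114668568-114668597, plus strand, run of 10: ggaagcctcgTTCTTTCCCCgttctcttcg
Rpl28, chr7:4792952-4792981, plus strand, run of 11: gcctctcgtgTCTCTCTTTCCgtctccggc
Rps6, chr4:86857349-86857378, minus strand, run of 10: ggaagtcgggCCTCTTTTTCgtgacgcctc
Rpl7a, chr2:26910788-26910817, plus strand, run of 21: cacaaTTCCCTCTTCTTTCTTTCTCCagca
Rplp0, chr5:115559466-115559495, plus strand, run of 7: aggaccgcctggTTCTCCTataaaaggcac
Rpl37, chr15:5116588-5116617, plus strand, run of 6: cgccggaagtagTTTCCTgggcggaagctt
Rpl41, chr10:128549156-128549185, minus strand, run of 3: gacacacgggccggCTCggaagtgacgaca
Rpl22, chr4:152324413-152324442, plus strand, run of 5: aatatcagcgctgCTTCTggaatgttccag
Rpl22l1, chr3:28805499-28805528, plus strand, run of 10: cgcaagcccgTTCTCTTCCCacggctgcag
Genes from both ends of the comparisons hold long runs, as Rps15a and Rpl28 show, and others hold short ones, as Rplp0 and Rpl37 show.

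Fixed motifs were counted on both strands of the same windows. CCGGAAG, a core bound by ETS factors, was in 34.8% of the members' windows and 8.86% of all windows. AAGATGGC, the core bound by the factor YY1, was in 11.6% against 2.75%. The E-box CACGTG, bound by Myc, was in 11.6% against 7.15%, and the TATA sequence TATAAA in 10.1% against 13.6%. CCGGAAG and AAGATGGC can overlap in the letters AAG, and on the other strand part of CCGGAAG can fall within a counted C/T run. A match is a description of the window, not of binding. Members with a run of 8 or more were set beside the others by their medians in each pair of arrays. The median naive genotype difference was 0.44 in log2 for the 25 with such a run and 0.53 for the 28 without, and the median difference of WT labelled activated minus WT naive was -0.31 and -0.28. The genotype medians in the arrays labelled activated were -0.08 and -0.23, and those of the miR-7 deficient pair -0.87 and -1.04. The ranges of members with and without such a run overlapped in every pair, and the gaps were not tested.

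Ribosomal protein genes were among the brightest features of every array. Of the 80 members, 74 were above the floor on both naive arrays and on the WT array labelled activated, and 75 on the miR-7 deficient array labelled activated. They made up 5.27% of the summed intensity of all named genes in WT naive, 6.68% in miR-7 deficient naive, 4.02% in WT labelled activated and 3.57% in miR-7 deficient labelled activated. Among the 100 most intense genes of each array, 12, 16, 5 and 4 were members. The median intensity of the 74 canonical genes was 10417 in WT naive, 14581 in miR-7 deficient naive, 8502 in WT labelled activated and 7414 in miR-7 deficient labelled activated. By share of intensity, by number among the 100 most intense and by median, the miR-7 deficient naive array was the highest, followed by WT naive, WT labelled activated and miR-7 deficient labelled activated. The brightest member on all 4 arrays was Rpl41, which encodes a very short protein of the large subunit, at 34584, 53134, 46532 and 43098 in that order of groups.

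**Figure D1:**
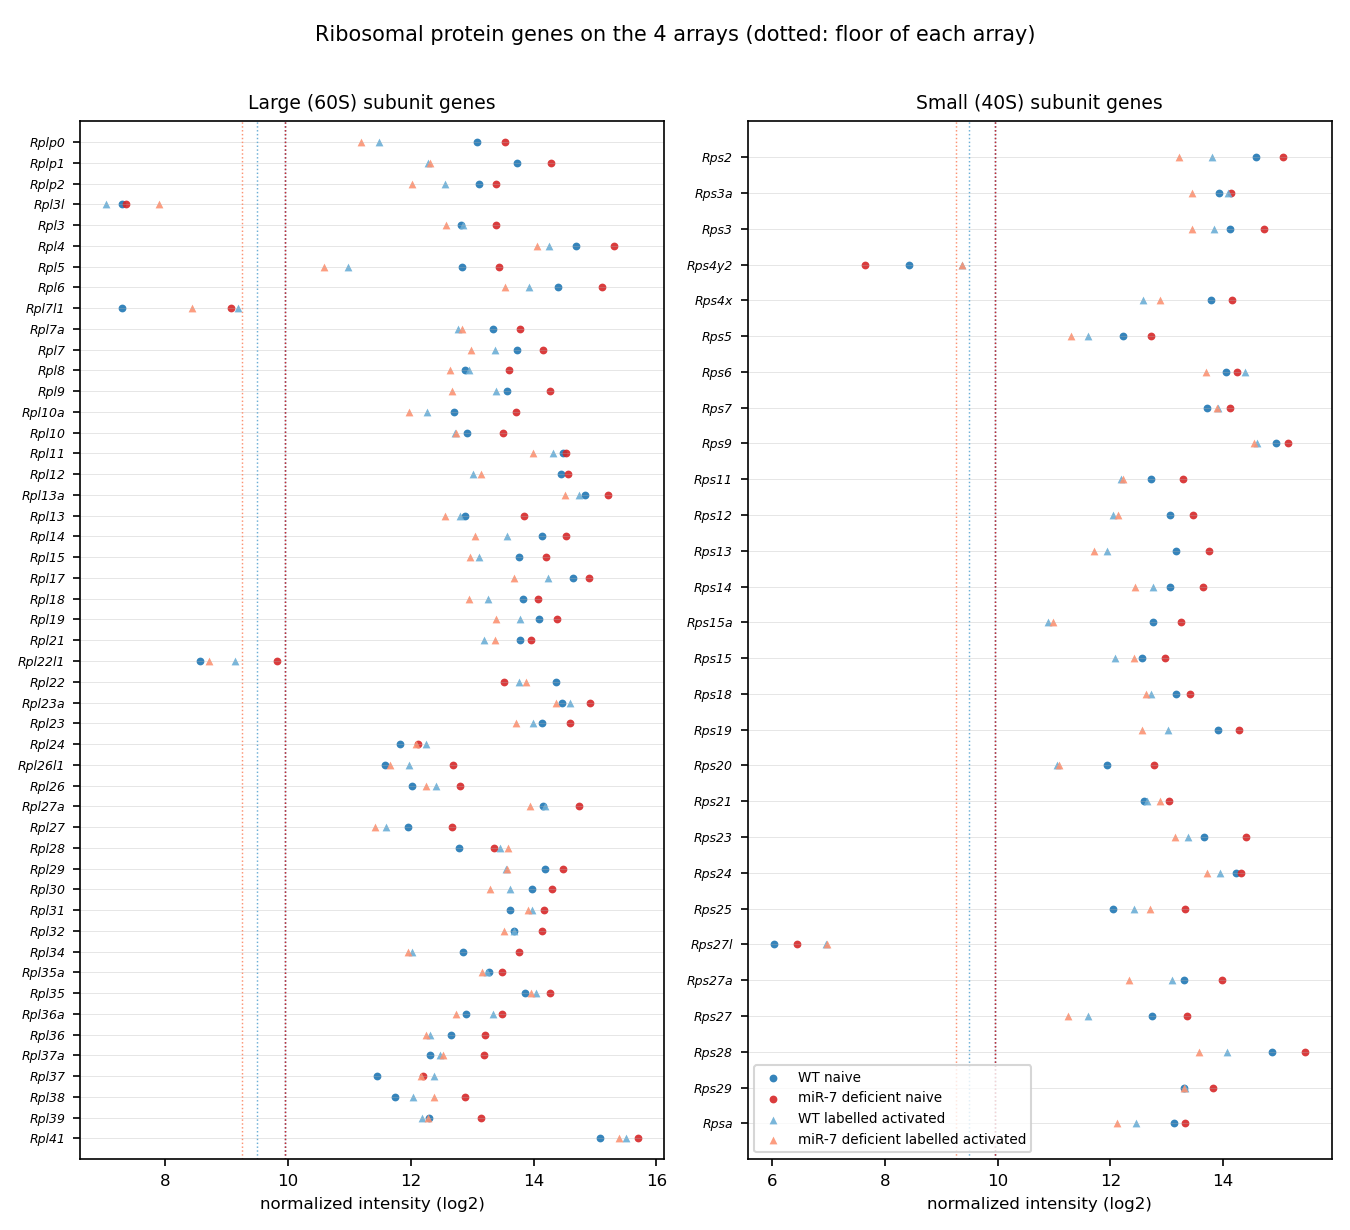
Normalized intensity (log2, horizontal axis) of 77 of the 80 ribosomal protein genes, large subunit on the left and small subunit on the right, with 1 point for each of the 4 arrays (circles naive, triangles labelled activated, blues WT, reds miR-7 deficient) and dotted lines at each array's floor. Nearly every gene lies well above the floors with the miR-7 deficient naive point to the right of the WT naive point, while Rpl3l, Rpl7l1, Rpl22l1 and Rps27l lie below the floor on all 4 arrays.

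The variant copies were mostly not above the floor, whereas their parent genes were. Rpl3l, which replaces Rpl3 in heart and skeletal muscle, read 157, 163, 131 and 239 in WT naive, miR-7 deficient naive, WT labelled activated and miR-7 deficient labelled activated, and Rpl3 was above the floor on each. Rps27l, a p53 target, read 65.5, 87.0, 125 and 126. Rpl22l1, the copy of Rpl22, read 378, 904, 565 and 420, and so came closest to the floor in miR-7 deficient naive. Rpl7l1 read 157, 539, 583 and 347. None of these 4 genes reached the floor on any array.

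Rps4y2 maps by gene ID to Rps4l, annotated in RefSeq as a transcribed pseudogene on chromosome 6. It was the one variant above the floor only on arrays labelled activated. The row used for it read 345 and 200 in the naive arrays and 661 and 660 in the arrays labelled activated, above the floor only in miR-7 deficient labelled activated. Its other row read 146 and 122 against 825 and 638, above the floor on both arrays labelled activated. Because the naive values were below the naive floors, which were higher than these readings, no fold is given. Rpl26l1 maps to Rpl26-ps4, annotated as a pseudogene on chromosome 16, and was far above the floor, at 3062, 6597, 4015 and 3238. Rpl26, on chromosome 11, read 4143, 7163, 5458 and 4843, and the order of the 4 arrays was the same for both genes. RefSeq lists 321 pseudogenes with Rpl or Rps symbols, so a row can also collect signal from near-identical copies, which was not tested because the probe sequences were not used here.

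The naive arrays set ribosomal protein transcripts of miR-7 deficient and WT cells side by side, in cells labelled as naive CD4+ T cells. In miR-7 deficient naive cells 73 of the 74 members above the floor were higher than in WT naive, with a median log2 difference of 0.49 (1.41-fold). Over all 2438 genes above the floor on both naive arrays 63.7% were higher, with a median of 0.16. All 27 small-subunit genes were higher, and 45 of the 46 canonical large-subunit genes. The size was modest, since 3 members (1 when the rows of each gene are averaged) were 2-fold or more higher and none 2-fold lower, against 2.01% and 0.615% of all genes above the floor.

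**Figure D2:**
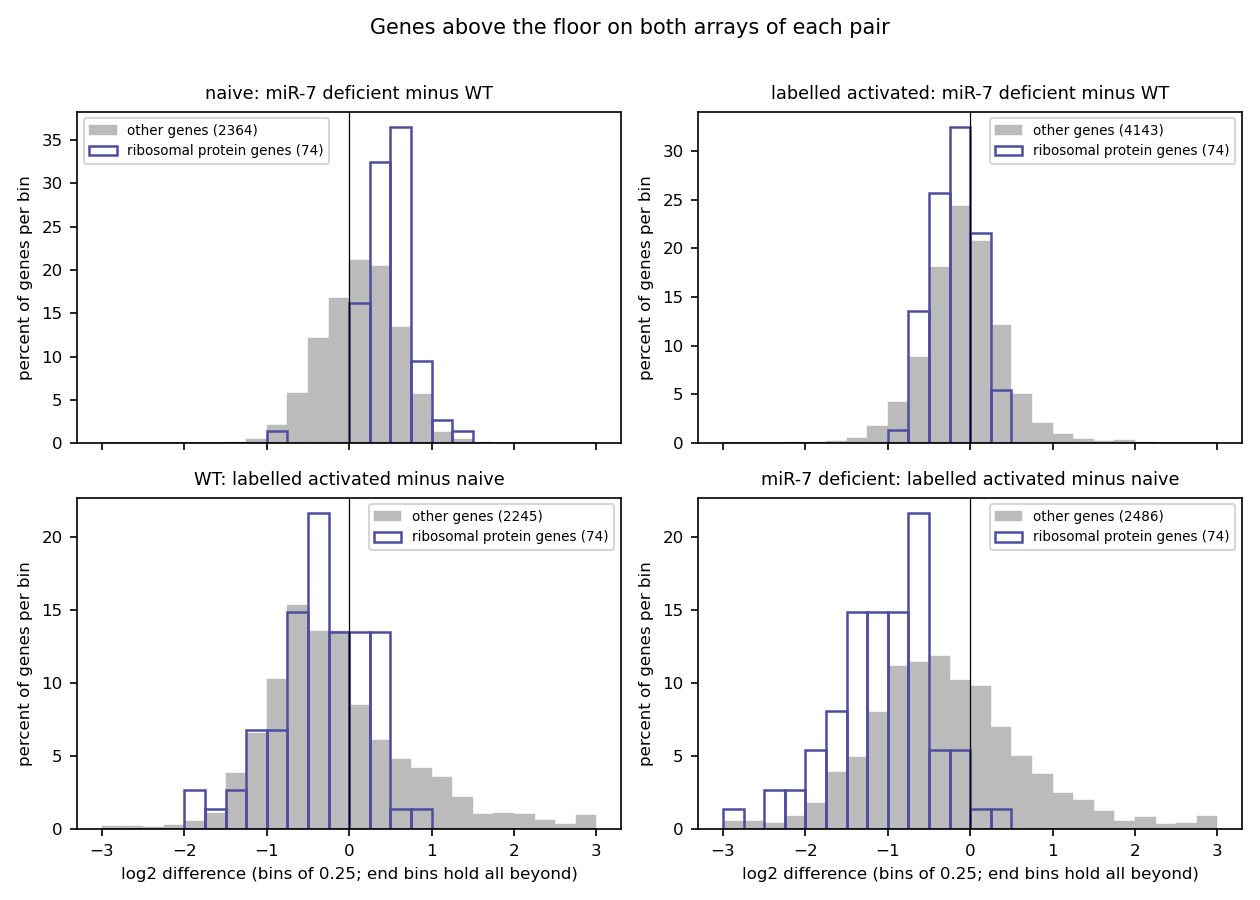
Percent of genes (vertical axis) in bins of 0.25 of the log2 difference (horizontal axis) in each of the 4 pairs of arrays, for the 74 ribosomal protein genes (outlined) and the other genes above the floor on both arrays (grey). In the naive pair the ribosomal protein genes lie almost wholly to the right of 0, in the pair of miR-7 deficient arrays almost wholly to the left, and in the other pairs they overlap the other genes.

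The 3 members 2-fold or more higher were Rps25, Rpl38 and Rpl26l1. Rps25 sits in the head of the small subunit and is needed for initiation at some viral entry sites. It read 4228 in WT naive and 10280 in miR-7 deficient naive (log2 difference 1.28), and its other rows above the floor on all arrays gave 0.76 and 0.48. Rpl38, known in mouse for its part in translating Hox mRNAs, read 3434 and 7555 (1.14, with 0.85 on its other row). Rpl26l1 read 3062 and 6597 (1.11). The next were Rpl10a at 0.999 and Rpl13 at 0.96, followed by Rpl34 at 0.91, Rpl37a at 0.89 and Rpl39 at 0.85. For Rpl10a the intensities were 6698 and 13385.

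At the other end stood Rpl22, the single member that was lower on the row used. Rpl22 binds RNA outside the ribosome and is needed for the development of αβ T cells in mice. Its brightest row read 21204 in WT naive and 11692 in miR-7 deficient naive (-0.86), but its other row above the floor read 3522 and 5463 (0.63), so its rows disagree and no direction is given for the gene. The smallest positive differences were those of Rpl11 at 0.05, Rps24 at 0.08 and Rpl12 at 0.11. Rpl21, Rpsa and Rps6 followed at 0.19 each. For Rpl11 the readings were 22967 and 23740, and its second row gave 0.32.

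Rows of the same gene, each a transcript-level value, give a measure of the spread within an array pair. It can hold differences between transcripts as well as measurement error, and it holds no error between arrays. For the 41 members with at least 2 rows above the floor on all 4 arrays (108 rows), the pooled SD between rows of a gene was 0.35 in log2 for the naive genotype difference. The SD between the 73 canonical members was 0.29, so the ranking of members within the naive pair is not resolved beyond the spread between rows. The shift of the whole set was seen on nearly all rows, since 36 of the 41 genes had all rows in the same direction, and 136 of all 141 member rows were higher. The 5 genes with disagreeing rows were Rpl15, Rpl17, Rpl21, Rpl22 and Rpl34. The widest split was that of Rpl34, whose rows gave 0.91, 0.85 and -1.11. In the miR-7 deficient pair the rows of Rpl34 ran from -1.81 to 0.73.

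**Figure D3:**
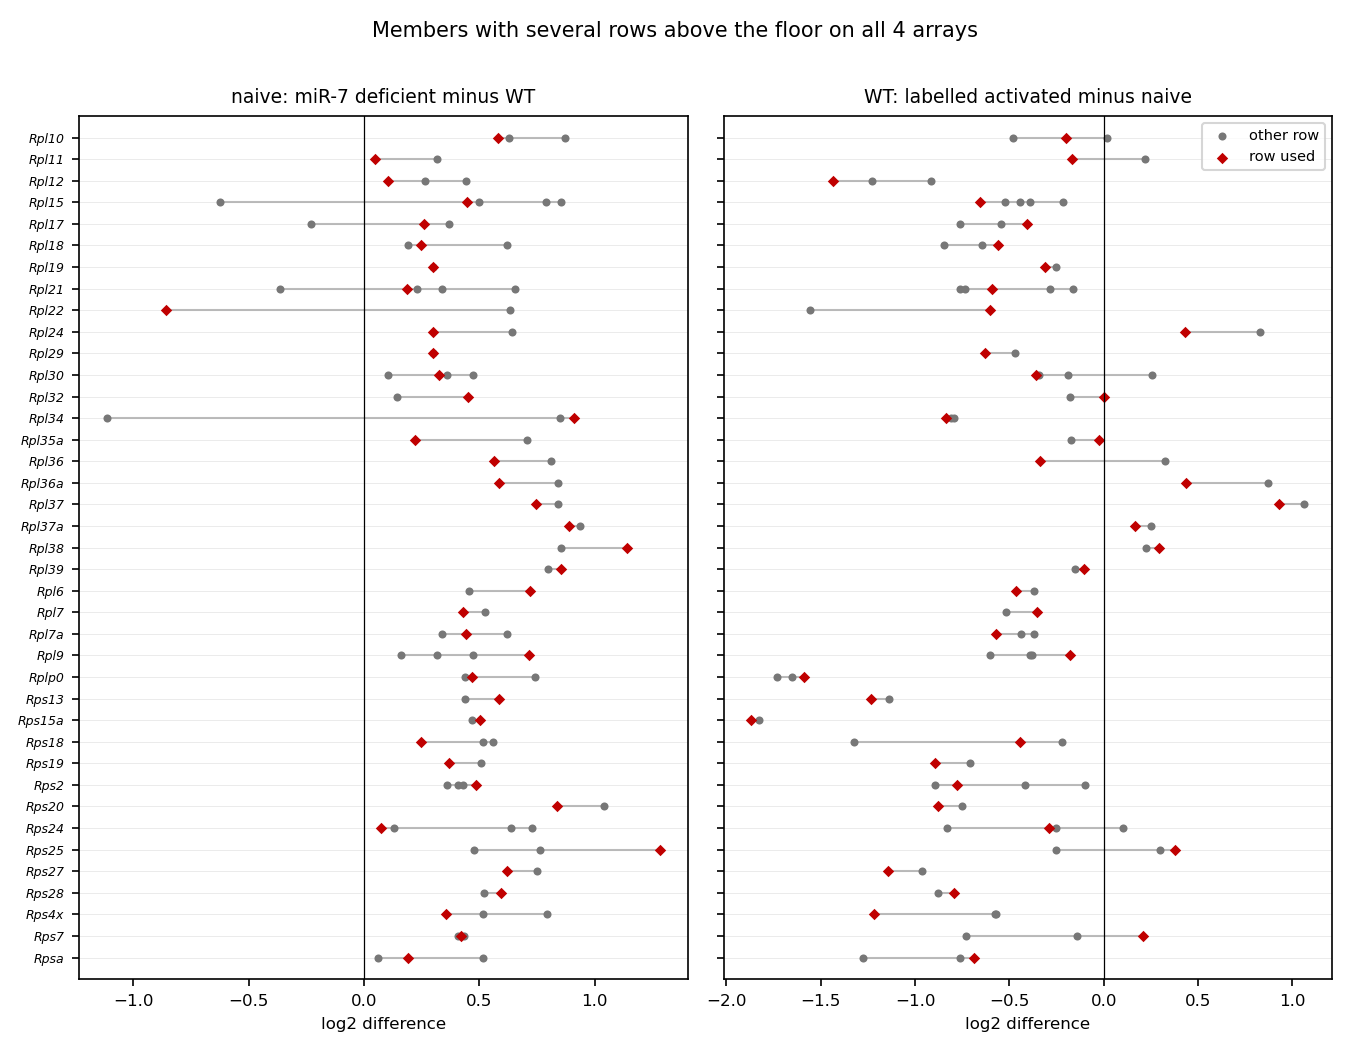
Log2 differences (horizontal axis) on every row of 39 members with several rows above the floor on all 4 arrays, for the naive genotype pair on the left and the WT pair on the right, with the row used in red. Rows of Rpl15, Rpl17, Rpl21, Rpl22 and Rpl34 lie on both sides of 0 on the left, while the rows of the other 34 genes lie to the right of 0.

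Bright genes as a whole were higher in miR-7 deficient naive, so the members were also read against the trend of the difference with intensity. A lowess line through all genes above the floor ran at 0.20 for members at their median, and the members' median above that line was 0.30, with 66 of 73 canonical members above it. With the line fitted to the other genes alone the median was 0.35 and 70 of 73 were above it. Rpl11, Rpl12, Rpl21, Rpl22, Rps24 and Rpsa were among those that lay below the line through all genes. B cell markers, which summed to 19806 in WT naive and 35724 in miR-7 deficient naive, were higher on the same array; their part in the difference was not tested.

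Related gene groups in the naive pair were counted with bounds included, where 62.6% of all genes were higher with a median of 0.13. Other genes with TOP mRNAs had 16 of 18 higher with a median of 0.45, and 1 of the 18 values was a bound. Among them Rack1, a small-subunit protein outside the Rps naming, read 7012 and 10516 (0.58), and Fau, whose product is processed to a 40S protein, read 21026 and 24710 (0.23), while Tpt1 (-0.31) and Vim (-0.42) were lower. Translation initiation and elongation factors had 23 of 28 higher with a median of 0.28, with 6 bounds. Ribosome biogenesis genes had 16 of 22 higher with a median of 0.18, but 11 of these were bounds, and the median of the 11 genes above both floors was -0.04. Mitochondrial ribosomal protein genes had 7 of 9 higher with a median of 0.39, of which 5 were bounds, and the 4 genes above both floors had a median of 0.62. Of 12 regulators of ribosome production only 4 reached a floor. All 4 were higher, with a median of 0.47, but 2 were bounds and the lowest value was 0.008. Among them Myc was 2302 in miR-7 deficient naive and 962 in WT naive, the latter just under the floor. That makes Myc at least 1.22 higher in log2. Larp1 was 0.44 and Ubtf, a factor for ribosomal RNA transcription, 0.50 higher, and Mtor was below the floor on both naive arrays.

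In the arrays labelled activated the genotype difference ran the other way and was smaller. Of the 74 members above the floor on both arrays, 54 were lower and 20 higher in miR-7 deficient, with a median of -0.21 (-0.20 with Rps4y2 counted at 0). Of all 4217 genes above the floor on both arrays 58.4% were lower, with a median of -0.09. No member was 2-fold or more apart in this pair, against 4.6% of all genes. The median difference was -0.19 in the large and -0.23 in the small subunit. The lowess trend with intensity ran at -0.11 for members at their median. Relative to that line the members' median was -0.12, with 44 of 73 canonical members below it and 29 above.

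Among the lowest members in this pair were Rps27a, Rpl9, Rps6 and Rps3a. Rps27a, which encodes ubiquitin fused to a small-subunit protein, read 8706 in WT and 5164 in miR-7 deficient (-0.75). Rpl9 read 10677 and 6539 (-0.71). Rps6, the substrate of the S6 kinases, read 21376 and 13323 (-0.68). Rps3a differed by -0.63, followed by Rpl36a at -0.60, Rps2 at -0.59 and Rpl17 at -0.57. The highest were Rps15 at 0.34, Rpl38 at 0.34, Rps4x at 0.30 and Rps25 at 0.28, then Rps21 at 0.22, Rpl21 at 0.18 and Rpl12 at 0.12. Rows of a gene agreed in direction for 18 of 41 genes, and the pooled SD between rows was 0.28 against an SD of 0.26 between canonical members. Rpl38 illustrates this, with 0.34 on the row used and -0.45 on the other. Rps4x does so more widely, since 1 of its other rows gave -1.09.

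The 2 genotype differences share no array, so they could be set side by side for the 73 canonical members above all floors. Across these genes, which are not independent replicates, Pearson's r was 0.04. In 53 the naive difference was positive and the other negative, in 19 both were positive, in 1 (Rpl22) the order was reversed, and in 0 were both negative. For Rpl22 this holds on the row used, while its other row above the floor gave 0.63 and -0.005. Of all genes above both floors, 63.7% were higher in the naive pair and 58.4% lower in the other. The share with both signs together was not computed over all genes. Rps25 and Rpl38 were near the top in both pairs. Rps27a and Rpl9 were above 0.5 in the naive pair and at the bottom of the other.

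**Figure D4:**
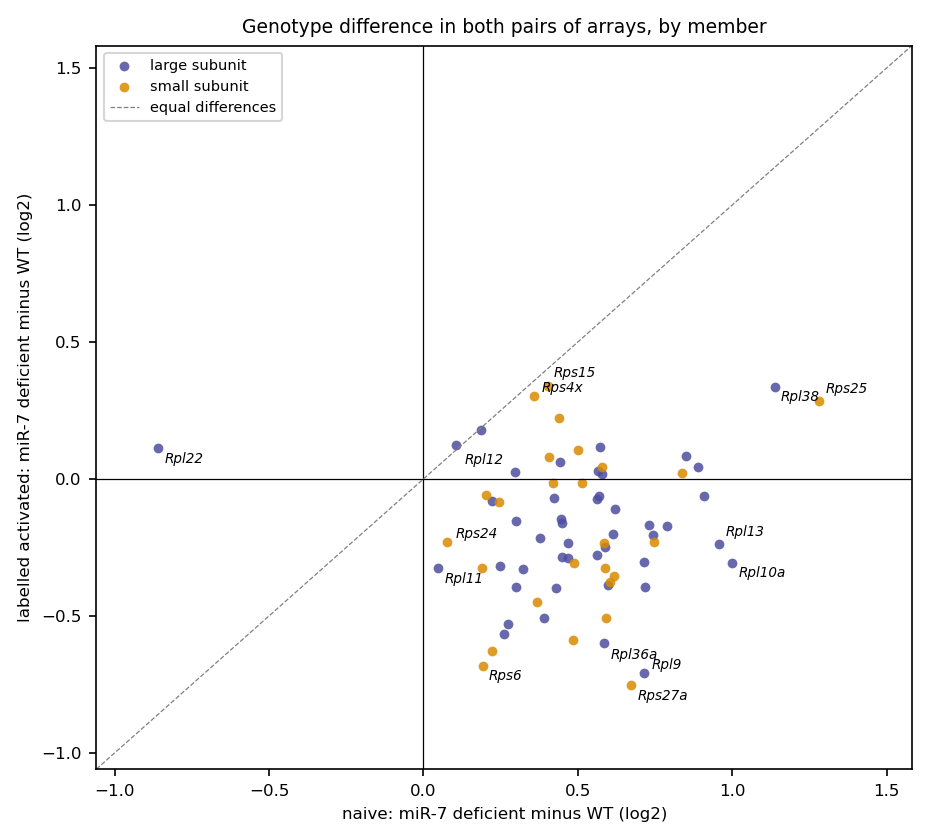
Genotype difference (miR-7 deficient minus WT, log2) in the naive pair (horizontal axis) and in the pair labelled activated (vertical axis) for 71 canonical members above all floors, large subunit in blue and small subunit in orange. Most points lie in the lower right quadrant and below the dashed line of equal differences, with Rpl22 alone on the left.

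Subtracting the naive genotype difference from that in the arrays labelled activated gave a median of -0.76 over 75 members, and 71 were negative, 3 positive and Rps4y2 at 0. Among 2059 genes above all floors 66.8% were negative with a median of -0.29. It was -1 or lower in 11 members, against 10.9% of those genes (6.18% with bounds included). With the lowess trend with intensity removed 4 members were 2-fold or more apart on this measure. The 11 members at -1 or lower before the trend was removed included Rps27a at -1.43, Rpl9 and Rpl26l1 at -1.42, Rpl10a at -1.30 and Rpl13 at -1.19. They also included Rpl36a at -1.18, Rpl6 at -1.11, Rps28 at -1.10, Rps2 at -1.07 and Rpl8 at -1.02. The positive members included Rpl22 at 0.97 and Rpl12 at 0.02. The T cell and neuron markers given above changed across the same label, and their part in this value was not tested.

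Between the WT arrays the members differed little as a group from other genes. Their spread was narrower than that of other genes, though wider than that between rows of a gene. The array labelled activated was lower than WT naive for 52 of 74 members and higher for 22, with a median of -0.32, against 65.7% lower and a median of -0.29 over all 2319 genes above both floors. There were 10 members 2-fold or more lower, against 12.8% of these genes (8.8% when genes with a bound are included), and none was 2-fold higher, against 10.5%. With the lowess trend with intensity removed 6 members were 2-fold or more apart, and with the row of the lowest mean 5. The SD between canonical members was 0.57 in log2, above the pooled SD between rows of 0.27. Over all genes but the members it was 0.98, with bounds included. T cell markers were lower and neuron markers higher across the same pair, as given above, and their part was not tested.

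In the large subunit Rpl5, Rplp0, Rplp1 and Rpl12 were 2-fold or more lower in both genotypes, whereas Rplp2 was so in miR-7 deficient alone and Rpl11 in neither. The acidic P stalk recruits the elongation factors, and consists of Rplp0, its base, with Rplp1 and Rplp2. Rplp0 (chromosome 5) read 8598 and 11903 in WT and miR-7 deficient naive, and 2862 and 2345 in the arrays labelled activated. That gave -1.59 in WT and -2.34 in miR-7 deficient, and its 2 other rows gave -1.65 and -1.73 in WT. Rplp1 (chromosome 9) read 13553 and 20035 against 4962 and 5059 (-1.45 and -1.99). Rplp2 (chromosome 7) read 8848 and 10686 against 6016 and 4163 (-0.56 and -1.36). Rpl12, which lies at the base of the stalk, read 22406 and 24100 against 8289 and 9021 (-1.43 and -1.42). Its other rows gave -0.91 and -1.23 in WT.

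Rpl5 and Rpl11 bind the 5S ribosomal RNA as a particle that also restrains Mdm2, the inhibitor of p53, yet their readings differed. Rpl5 (chromosome 5) read 7337 and 11094 in the naive arrays and 2008 and 1537 in those labelled activated (-1.87 in WT and -2.85 in miR-7 deficient), the lowest member in both. It has 1 row. Rpl11 (chromosome 4) read 22967 and 23740 against 20413 and 16283 (-0.17 and -0.54), and its second row gave 0.22 and -0.40.

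In the small subunit Rps15a was lowest, at 6910 and 9774 against 1891 and 2033 (-1.87 and -2.27). Rps13 read 9199 and 13788 against 3911 and 3330 (-1.23 and -2.05). Rps27, a zinc-finger protein of the small subunit, read 6836 and 10486 against 3098 and 2426 (-1.14 and -2.11). Rps4x gave -1.22 and -1.27, and Rps12 -1.01 and -1.34. The other rows of Rps4x gave -0.57 and -0.58 in WT, and -1.35 and -2.46 in miR-7 deficient. On the row used, Rps13, Rps27, Rps4x and Rps12 with Rpl5, Rplp0, Rplp1, Rpl12 and Rps15a are among the 10 members 2-fold or more lower in WT. For the laminin receptor gene Rpsa the differences were -0.69 and -1.21.

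A few members were higher in the WT array labelled activated than in WT naive. Rpl37 read 2790 in WT naive and 5317 in WT labelled activated (0.93, with 1.06 on its second row). Rpl28 read 7085 and 11269 (0.67, on 1 row). Rpl36a gave 0.44, Rpl24 and Rpl41 0.43, Rpl26 0.40, Rpl26l1 0.39 and Rps25 0.38. Rps6 gave 0.33. Rows of a gene agreed in direction for 33 of 41 genes, and the exceptions included Rpl10, Rpl11, Rpl30, Rpl36, Rps24, Rps25 and Rps7.

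In the miR-7 deficient pair the members were lower as a group. Of 74 members above both floors 72 were lower in the array labelled activated, with a median of -0.99 (-0.97 with Rps4y2 counted at 0), against 66.6% lower and a median of -0.39 over 2560 genes. There were 37 members 2-fold or more lower, against 21.9% of these genes (14.8% with bounds included), and no member was 2-fold higher, against 8.48%. With the lowess trend with intensity removed, 16 members were 2-fold or more apart. Besides Rplp0, Rplp1, Rpl5, Rps15a, Rps27 and Rps13, the lowest on the row used were Rps28 at -1.89 and Rps2 at -1.85. For Rps2 this holds on that row alone, since its other rows above all floors gave -0.82, -0.93 and -0.91. The 2 higher members were Rpl22 at 0.37, whose other row gave -2.19, and Rpl28 at 0.21. Rpl37 and Rpl24 stood at -0.02 each, followed by Rps21 at -0.16, Rps7 at -0.23, Rpl31 at -0.26 and Rpl41 at -0.30. The lowess trend with intensity reached -0.55 at the members' median here, and the members' median below it was -0.42, with 61 of 73 below the line.

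These 2 differences also share no array. Across the 73 canonical members the WT and the miR-7 deficient values had a Pearson's r of 0.80 and a Spearman's rho of 0.76, given as a description because all arrays share the same probes and platform. Both were negative in 51 members, both positive in 1 (Rpl28), and in 20 the WT value alone was positive. The order of the members was thus much alike in both genotypes, with Rpl5, Rps15a and Rplp0 lowest in each. The same values were not computed over all genes, so this likeness is not shown to be particular to the members. T cell and neuron markers changed across the label in both pairs, and their part was not tested.

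**Figure D5:**
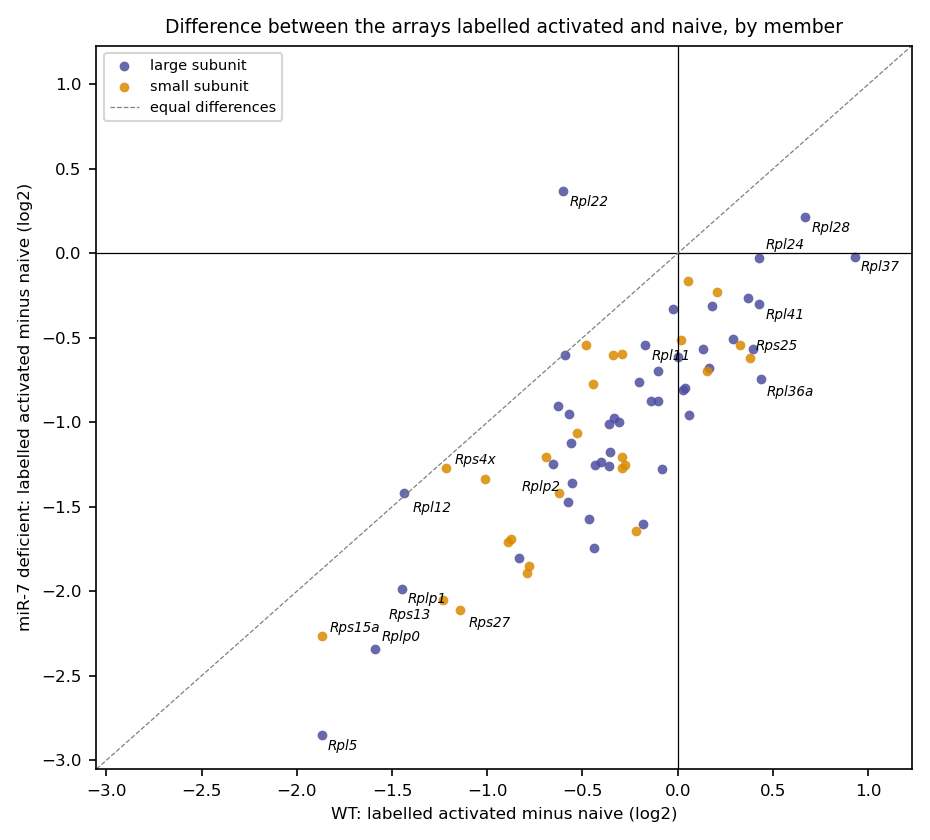
Labelled activated minus naive difference (log2) in WT (horizontal axis) and in miR-7 deficient cells (vertical axis) for 71 canonical members above all floors, large subunit in blue and small subunit in orange. The points run along a band below the dashed line of equal differences, from Rpl5 at -1.87 and -2.85 to Rpl28 and Rpl37 at the upper right, with Rpl22 above the line.

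The subunits were also compared by their medians. The median difference of the large minus that of the small subunit was 0.03 for the naive genotype pair and 0.04 for the pair labelled activated. It was 0.19 for the WT pair and 0.28 for the miR-7 deficient pair, with medians of -0.26 (large) and -0.44 (small) in WT and -0.93 and -1.21 in miR-7 deficient. Leaving out members with a single row moved the WT value to 0.53.

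Groups defined by the structure or history of the proteins showed similar medians in the naive genotype pair, at 0.51 for 32 universally conserved proteins, 0.44 for 39 eukaryote-specific ones, 0.51 for 11 proteins of the 40S head and 0.52 for 8 around the exit tunnel. In the WT pair the exit tunnel group stood at 0.01 with 4 of 8 lower, the 40S head at -0.48 with 9 of 11 lower, and the P stalk at -1.45 with 3 of 3 lower. Of all genes above both floors 65.7% were lower in that pair. In the miR-7 deficient pair the same groups stood at -0.72, -1.34 and -1.99. The 16 measured genes mutated in Diamond-Blackfan anaemia, a human disorder, had medians of 0.47, -0.32 and -0.86 in the naive genotype, WT and miR-7 deficient pairs.

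Other TOP genes were split in the WT pair, with 10 of 18 lower and a median of -0.11. The share lower was 40% over all genes with bounds included and 65.7% over those above both floors. Rack1 read 7012 in WT naive and 3001 in WT labelled activated (-1.22), and Tpt1 13239 and 5173 (-1.36). The elongation factor genes Eef1d, Eef1g and Eef2 gave 0.77, 0.66 and 0.45. In the miR-7 deficient pair 18 of 19 were lower with a median of -0.64, and Rack1 gave -2.09. There 37.8% of all genes were lower with bounds included and 66.6% of those above both floors. Mitochondrial ribosomal protein genes had 20 of 29 higher in the WT pair with a median of 0.28, against 43.7% of all genes with bounds included, but 24 of the 29 values were bounds. In the miR-7 deficient pair 21 of 36 were higher with a median of 0.06, against 37.4% of all genes with bounds included. Of the 36 values 30 were bounds, and the 6 genes above both floors had a median of -0.62. Eef1a2, the elongation factor of neurons and muscle, read 138 and 214 in the naive arrays and 17167 and 18757 in those labelled activated.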

How the data were processed

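The deposited intensity values are on a linear scale (21.7 to 64873) with array medians near 200, although the file headers call them log2 transformed. They were normalized by the authors with RMA, per the submitters' processing notes, with no version given. The deposited comparison tables also hold a fold ratio per row, which was not used here, and all 283288 of their intensities match the value table to 1e-06 in relative terms. The growth and treatment text in the labels describes a bacterial culture and was not used. No source used here names the array design's genome build.

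Of 35411 rows, 33663 carry a gene name; the 1748 without one were left out. Rows were joined by identifier and the log2 of the deposited intensity was taken with Python 3.11.15 and pandas 2.3.3. Values under an array's floor were set to it, which makes a bound, and genes under both floors were left out. All differences are log2 differences between 2 arrays, and 2-fold is a log2 difference of 1. Lowess used a fraction of 0.3 (statsmodels 0.14.6). For 79 of 80 members the gene ID matched RefSeq's table, with 3 current symbols that differ (Rps3a1, Rps4l, Rpl26-ps4). The only measure of error is the spread between rows of a gene, which holds no error between arrays, and the number of arrays limits the precision.

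The members, the gene lists and the markers were chosen with earlier results of these data known. Genes named are the 8 highest and 8 lowest per comparison, all 2-fold apart, variant copies, the P stalk, Rpl5, Rpl11, Rps6, Rpsa, Rps27a and genes with disagreeing rows. Alternatives were other scalings, floors and row choices. Some members are counted but not reported singly here. The script was tested on simulated data.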

Additional observations from a re-analysis of the deposited data

Results flagged for a closer look

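The genotype difference of the ribosomal protein genes ran in opposite directions in the 2 pairs of arrays. Its median was 0.49 in the naive pair and -0.20 in the pair labelled activated. The medians over all genes above both floors also differed in sign, at 0.16 and -0.09. The difference between the pairs was not tested, since each group has 1 array.

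In 10 of 73 canonical members the signs were opposite and the 2 values were 2-fold or more apart, which was likewise not tested. Of all genes above every floor, 14.6% had 2-fold or more between their genotype differences, in either direction and whatever the signs. The values of 9 of them follow. Rpl10a gave 0.999 in the naive pair and -0.31 in the pair labelled activated. Rpl13 gave 0.96 and -0.24. Rpl36a gave 0.58 and -0.60, but its second row gave 0.84 and 0.10. Rpl6 gave 0.72 and -0.39, but its second row gave 0.45 and 0.03. Rpl8 gave 0.71 and -0.30. Rpl9 gave 0.71 and -0.71, while 1 of its other rows gave 0.32 and 0.06. Rps2 gave 0.48 and -0.59, while 1 of its other rows gave 0.41 and 0.39. Rps27a gave 0.67 and -0.75. Rps28 gave 0.59 and -0.51.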

How the results depend on the processing

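No paired analysis was possible because each group has 1 array and the groups share only the replicate number 1. No replicate could be left out for the same reason. Over 12 alternative settings, 165 of 180 values stayed within the spread or within 1.5 times the main count and 15 moved. Among those within the spread, the large minus small subunit median changed sign in the naive pair, from 0.03 to -0.04 with the mean of all rows, -0.07 with the row of the lowest mean and -0.01 without members that have a single row. Under the last setting it also changed sign in the pair labelled activated (0.04 to -0.0014) and for the difference of differences (0.08 to -0.0069). The medians ranged from 0.32 to 0.54 in the naive genotype pair, -0.21 to -0.12 in the pair labelled activated, -0.36 to -0.07 in the WT pair, -1.01 to -0.42 in the miR-7 deficient pair and -0.76 to -0.49 for the difference of differences. With the lowess trend removed the miR-7 deficient median was -0.42, and members 2-fold or more apart were 16 there (18 with the trend fitted without the members, 24 without members that have a single row, 37 in the main setting). In WT they were 6 with either trend removed and 5 with the row of the lowest mean, against 10. For the difference of differences they were 4 with the trend removed, 6 with the trend fitted without the members or with each pair quantile normalized by itself, and 7 with the mean of all rows, against 11. In the naive pair they were 1 with the mean of all rows and 5 with no floor, against 3, and in the pair labelled activated 1 with the row of the lowest mean, against 0. Without members that have a single row, the large minus small median in WT was 0.53 against 0.19. The cause of these moves was not tested, beyond the fewer members in the last setting. The trend fitted without the members, centring on genes above the floor and leaving out members with a single row were chosen after seeing the data. Signal over background limits the variant copies, most of which have only upper bounds.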
